A study of Homo sapiens with 8 samples.

Results

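The interferon regulatory factor (IRF) genes encode transcription factors that share an N-terminal DNA-binding domain and recognise repeats of GAAA in the promoters of interferons and of interferon-stimulated genes. 8 listed genes, IRF1, IRF2, IRF3, IRF4, IRF5, IRF7, IRF8 and IRF9, were examined out of 20090 protein-coding genes on chromosomes 1 to 22 and X. The rule that picked them lists their names and sets no condition on a measured value. For each gene the broad ChIP-seq peaks were read over its window, which is the gene record with 20 kb on each side, and over its transcription start site (TSS). All 8 genes are accounted for below, and none was removed by a filter on low values.

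The data were broad peak lists for H3K4me3 and H3K27ac in HL-60 cells, a human leukemia line grown from peripheral blood. All-trans retinoic acid (ATRA) drives these cells towards granulocytes. The ATRA group received 1 µM ATRA for 4 days, and the control group received the same volume of ethanol, the solvent, for the same time. Each mark had 2 ATRA and 2 control libraries, all from this 1 line, and the labels do not say whether the replicates came from separate cultures, so the spread between them may be technical. The question put to the IRF genes was whether either mark covered more or less of them after ATRA induction.

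H3K4me3 marks active promoters, and H3K27ac marks active promoters and enhancers. Within the family, IRF1 is an activator induced by interferon gamma, and IRF2 binds the same sites and mostly opposes it. IRF3 and IRF7 are phosphorylated after virus sensing and switch on type I interferon genes, and IRF5 acts downstream of Toll-like receptors on inflammatory cytokine genes. IRF9 is the DNA-binding subunit of the complex that carries the interferon signal to the nucleus. IRF4 and IRF8 act in blood cells together with ETS factors such as PU.1, and IRF8 is known for favouring monocytes over granulocytes.

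The libraries differed in how much of the genome they called, and this bears on every value below. H3K4me3 peaks covered 63.2 and 62.3 Mb in the ATRA libraries and 59.9 and 47.7 Mb in the control libraries. H3K27ac peaks covered 64.8 and 86.2 Mb after ATRA and 28.8 and 54.0 Mb in the control, a log2 ratio of the means of 0.87. No read counts were analysed here, so the depth is unknown, and lengths were also compared as a share of each library's total length under peaks. The cells carried H3K4me3 over the start of 6 or 7 of 9 myeloid marker genes in each library, with ELANE and AZU1 unmarked in all. Of 5 granulocytic differentiation genes, 4 carried it in both ATRA libraries and 1 and 0 in the control libraries. Of the markers of other cell types, 1 of 5 T cell genes carried it in all 4 libraries, 1 of 4 B cell genes and 1 of 3 erythroid genes in 3 of 4 libraries, and 0 of 3 epithelial and liver genes in any.

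Promoter sequences are shown where they held a match to a searched motif, and the results on the marks do not depend on these matches. The promoter stretches are the 250 bases before a RefSeq start (RefSeq, GRCh38.p14), placed on hg19 by exact match, and RefSeq entries were matched for 5 of the 8 genes, the others being IRF2, IRF3 and IRF7. 4 motifs were searched on both strands, among them the interferon-stimulated response element (GAAANNGAAA) and the gamma-activated site bound by STAT factors (TTCNNNGAA). The others were the composite site of an ETS factor and an IRF (GGAANNGAAA) and a direct repeat of GGTCA spaced by 5 bases (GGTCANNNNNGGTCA). Retinoic acid receptors bind repeats of the longer AGGTCA spaced by 5 bases, and that repeat was not searched. Among 35114 promoter stretches of the same length, the letters of the 4 searched motifs were found in 3.02%, 6.57%, 2.41% and 0.0769%. A match describes the letters and not a bound site. Capitals mark the matches. The first stretch lies before the canonical IRF1 start (chr5:131826466-131826715, minus strand), the second before an internal IRF5 start (chr7:128580474-128580723, plus strand) and the third before the IRF9 start (chr14:24630224-24630473, plus strand).
IRF1 promoter: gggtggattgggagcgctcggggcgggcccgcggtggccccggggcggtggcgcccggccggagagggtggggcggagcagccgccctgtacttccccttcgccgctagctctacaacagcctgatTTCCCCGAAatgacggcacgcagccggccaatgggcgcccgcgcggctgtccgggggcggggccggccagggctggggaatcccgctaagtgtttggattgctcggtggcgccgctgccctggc
IRF5 internal promoter: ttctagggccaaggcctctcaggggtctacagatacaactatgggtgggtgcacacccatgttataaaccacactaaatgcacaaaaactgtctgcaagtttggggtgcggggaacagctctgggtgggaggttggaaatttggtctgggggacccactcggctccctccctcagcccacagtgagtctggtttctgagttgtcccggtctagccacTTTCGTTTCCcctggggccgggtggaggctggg
IRF9 promoter: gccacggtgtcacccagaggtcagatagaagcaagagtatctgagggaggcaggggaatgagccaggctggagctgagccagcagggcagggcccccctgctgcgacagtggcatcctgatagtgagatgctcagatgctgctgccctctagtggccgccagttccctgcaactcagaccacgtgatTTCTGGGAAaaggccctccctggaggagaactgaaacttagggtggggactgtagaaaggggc
The IRF1 stretch held 1 gamma-activated site motif, whose first base lay 124 bases before the start, and 29 CpG dinucleotides, more than in 85.9% of promoters. The IRF9 stretch held the same motif 63 bases before its start, with 4 CpG dinucleotides. The IRF5 stretch held 1 composite motif 33 bases before the start and 5 CpG dinucleotides. The response element and the GGTCA repeat were in none of these 3 stretches. Of the 9 RefSeq promoter stretches of these genes, the 3 printed were those with a match, and the other 6 (IRF4, 3 of IRF5 and 2 of IRF8) held none of the 4 motifs.

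A further pair of sequences comes from H3K27ac regions found in both ATRA libraries and in no control library. Each is the central 300 bases of the stretch that both ATRA libraries shared, read from GRCh37 (hg19) on the plus strand. The first lies downstream of the canonical IRF1 transcript (chr5:131810809-131811108), and the second lies in an intron of the canonical IRF2 transcript (chr4:185372839-185373138).
IRF1 ATRA-only stretch: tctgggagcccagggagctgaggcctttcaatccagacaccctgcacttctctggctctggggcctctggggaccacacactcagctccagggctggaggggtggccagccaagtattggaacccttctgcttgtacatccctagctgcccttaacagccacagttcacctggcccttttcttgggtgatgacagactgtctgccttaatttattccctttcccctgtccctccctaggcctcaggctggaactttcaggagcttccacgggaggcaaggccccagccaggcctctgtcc
IRF2 ATRA-only stretch: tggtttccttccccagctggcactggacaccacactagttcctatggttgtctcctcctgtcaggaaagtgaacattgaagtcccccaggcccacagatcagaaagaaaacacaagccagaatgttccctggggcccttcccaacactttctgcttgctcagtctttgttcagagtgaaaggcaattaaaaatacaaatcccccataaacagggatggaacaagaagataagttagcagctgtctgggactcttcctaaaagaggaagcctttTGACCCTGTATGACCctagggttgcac
The IRF2 stretch held 1 GGTCA repeat, starting at base 274, read on the minus strand. The repeat was present in 6 of 3350 such central stretches in the genome (0.179%), those of all H3K27ac regions found only in both ATRA libraries that shared at least 300 bases. None of the 4 motifs was found in the IRF1 stretch. Of the 6 central stretches from ATRA-only H3K27ac regions of these genes, 1 held a motif and 5 held none, among them the 4 not printed, from IRF1, IRF2, IRF7 and IRF9.

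**Figure D1:**
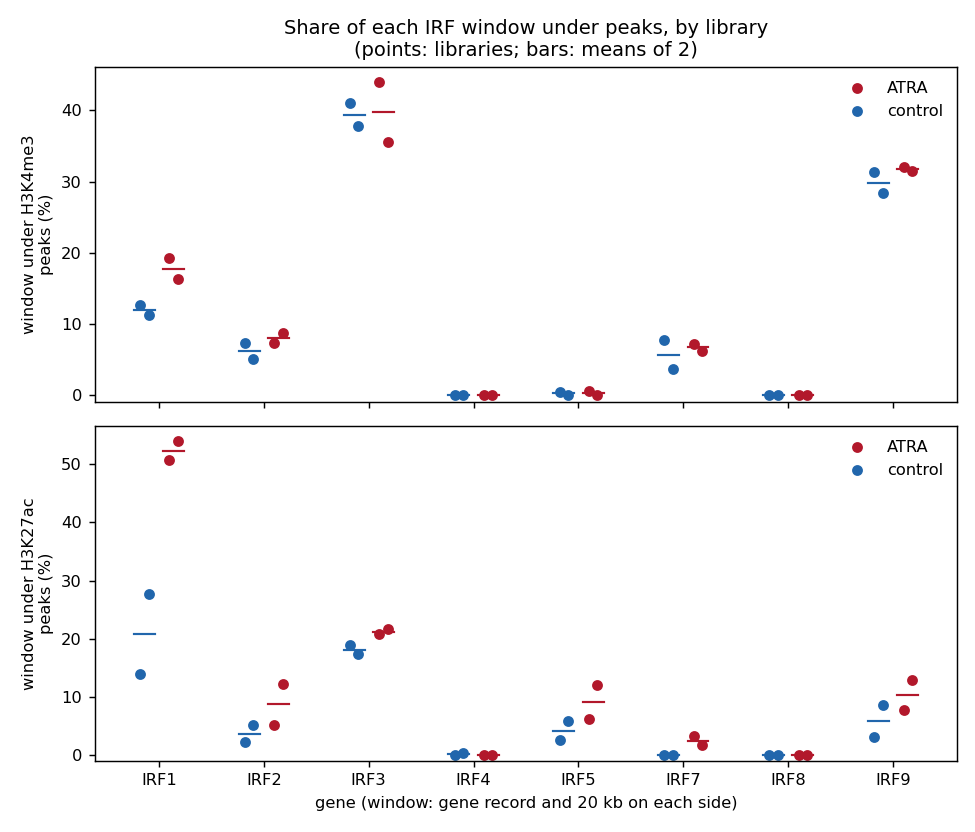
Percent of each gene's window (y axis) under H3K4me3 peaks (upper panel) and H3K27ac peaks (lower panel) for the 8 IRF genes (x axis), with control libraries in blue and ATRA libraries in red, 2 each, and bars at the group means. IRF1 stands out in H3K27ac, at 50.7% and 53.9% after ATRA against 13.9% and 27.6% in the control, and IRF8 is at 0 in all panels.

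H3K27ac covered more of the IRF1, IRF2, IRF3, IRF5 and IRF7 windows in both ATRA libraries than in both control libraries, and less of none. IRF1 had the largest gain in bases, from a mean of 22512 to 56664 bp. These 5 of 8 windows compare with 33.7% of all coding genes whose ATRA libraries lay above both controls, and with 2.97% that lay below. Among genes with an H3K27ac peak in any library, 43.7% lay above and 3.86% below. The median log2 change of the 8 windows was 0.75, beside 0.27 for all coding genes. It was 0.85 for the 7 IRF windows with an H3K27ac peak in any library, beside 0.49 for the 15477 such genes. With 2 libraries against 2, the smallest exact two-sided permutation p is 0.33, which each of the 5 windows reached, so no single window can pass 0.05.

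Expressed as a share of each library's total length under H3K27ac peaks, the differences were smaller. IRF1 and IRF7 lay above both controls, IRF3 lay below both, and IRF2 and IRF5 overlapped, beside 14.1% of coding genes above and 19.3% below. The median of the 8 windows was then 0.10, with all coding genes at 0.000 and those with an H3K27ac peak at −0.13. The deposited −log10 q did not follow peak length and stands beside columns with impossible values, so what it measures is uncertain. Counting only peaks where it was at least 5, IRF3 alone had ATRA above control (4.23% of coding genes did), and 1 of 28 H3K27ac peaks in the IRF1 window, 0 of 16 in that of IRF2 and 0 of 11 in that of IRF9 reached this value.

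H3K4me3 covered more of the IRF1, IRF2 and IRF9 windows in both ATRA libraries, and less of none, beside 30.1% of coding genes above and 2.46% below. Among genes with an H3K4me3 peak in any library, 41.3% lay above and 3.39% below. The median log2 change of the 8 windows was 0.06, against 0.07 for all coding genes. It was 0.13 for the 6 IRF windows with an H3K4me3 peak, against 0.16 for the 14609 such genes. As a share of the library, IRF1 lay above both controls and IRF9 below both, where 11.6% of coding genes lay above and 18.5% below. The genome-wide log2 ratio of total H3K4me3 length was 0.22.

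Over the 5′ end of the gene record, no member had an H3K4me3 peak that was longer or shorter in both ATRA libraries, where 21.1% of coding genes had a longer one and 2.41% a shorter one. The H3K27ac peak there was longer for IRF3 only and shorter for none, beside 12.7% and 1.5% of coding genes. At the start of the canonical transcript, the H3K4me3 peak was longer for IRF1 alone, beside 22.4% longer and 2.54% shorter among coding genes. The H3K27ac peak at the canonical start was again longer for IRF3 alone, beside 13.3% and 1.59%.

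**Figure D2:**
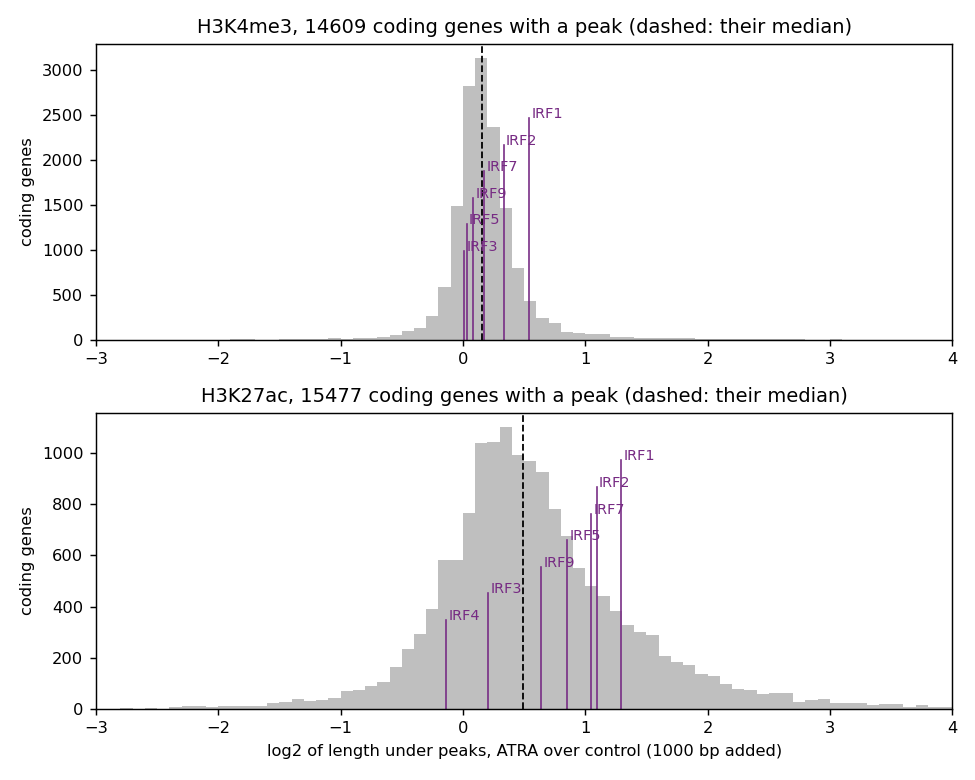
Number of coding genes (y axis) by log2 change of the length under peaks in the window, ATRA over control with 1000 bp added (x axis), for genes with a peak in any library, with IRF genes marked and the median dashed. IRF1 lies at 0.54 for H3K4me3 and 1.29 for H3K27ac, right of the medians of 0.16 and 0.49, and 3 H3K4me3 and 34 H3K27ac values beyond the axis, which runs from −3 to 4, are not drawn.

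IRF1, the activator, lies on chromosome 5 (ENSG00000125347, chr5:131776132-131844411, minus strand), and its annotated record begins 17946 bp upstream of the canonical start. Its window also holds the canonical start of a coding readthrough gene on the other strand, ENSG00000283782, which is the nearest coding start for most H3K27ac peaks downstream of IRF1, so the parts of the 2 genes there cannot be told apart. H3K27ac peaks covered 54916 and 58411 bp of its window after ATRA and 15090 and 29934 bp in the control. Both ATRA libraries were above both control libraries, and the control libraries differed from each other by more than the ATRA libraries did. The log2 change was 1.29 (ratio of means 2.52), higher than in 87.7% of coding genes, and 0.49 as a share of the library. In those units the window held 847 and 678 bp per Mb of peaks after ATRA and 524 and 555 bp in the control.

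The added H3K27ac at IRF1 lay on both sides of the canonical transcript. Upstream of the start, ATRA replicate 1 had a peak of 10480 bp and ATRA replicate 2 one of 10814 bp. On that side of the start, control replicate 2 had peaks of 1650 and 2337 bp and control replicate 1 had none. Downstream of the transcript, within the gene record and the antisense gene IRF1-AS1, domains of 19199 and 19977 bp were present after ATRA. The longest control peaks there were 4961 and 15245 bp. Between that domain and the transcript, a region of 7138 bp (chr5:131808795-131815932), from which the IRF1 ATRA-only stretch above was read, held peaks of 3952 and 6762 bp after ATRA and none in the control. Another of 4851 bp (chr5:131771144-131775994) lay beyond the gene record inside IRF1-AS1 and held peaks of 3277 and 4851 bp.

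Of 65185 bp of the IRF1 window under any H3K27ac peak, 20190 bp (31.0%) were in both ATRA libraries and no control library, and 0 bp were in both control libraries and no ATRA library. Across the genome these shares were 14.8% and 1.75%. The canonical start itself lay under an H3K27ac peak only in ATRA replicate 1 (1735 bp), and of 28 annotated IRF1 start positions 13 and 9 lay under H3K27ac after ATRA against 0 and 4 in the control.

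H3K4me3 over the canonical IRF1 start was longer after ATRA. The peak measured 15444 and 10354 bp after ATRA and 6180 and 7179 bp in the control, so the groups did not overlap. In ATRA replicate 1 it took in an upstream stretch where the other libraries had a separate peak. That separate peak was 3149 bp in ATRA replicate 2 and 3960 and 2802 bp in the control. The peak over the start reached 6911 and 6695 bp into the gene after ATRA and 3597 and 3561 bp in the control. Of the 10124 genes with such a peak in all 4 libraries, 41.7% likewise reached further in both ATRA libraries. The window held 20885 and 17567 bp of H3K4me3 after ATRA and 13634 and 12213 bp in the control, a log2 change of 0.54 that was higher than in 94.3% of coding genes. The promoter stretch printed above was wholly under H3K4me3 in all 4 libraries and under H3K27ac in ATRA replicate 1 only.

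**Figure D3:**
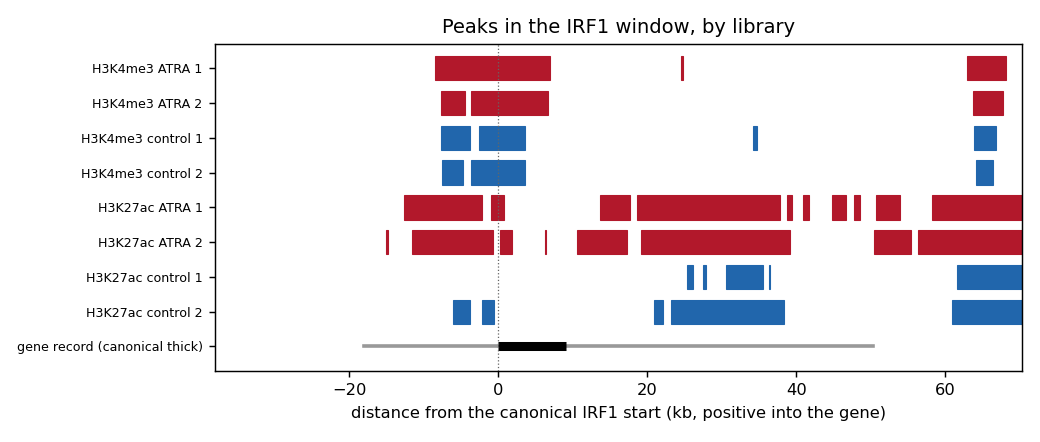
Peaks in the IRF1 window (boxes, ATRA red and control blue) in each of the 8 libraries (rows), by distance from the canonical start in kb (x axis, positive into the gene), with the gene record as a grey line and the canonical transcript as a black bar. H3K4me3 at the start is 15444 and 10354 bp long after ATRA against 6180 and 7179 bp, and H3K27ac fills more of the window in both ATRA rows.

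By Euclidean distance over log2(bp + 1000) in the 8 libraries, the coding genes most like IRF1 outside its own window were SCNN1A (0.63), DUS2 (0.75) and RB1 (0.80). Their H3K27ac log2 changes were 1.28, 1.17 and 1.58, beside 1.29 for IRF1. The H3K27ac lengths entered the distance, so similar changes follow from how these genes were picked.

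IRF2, the counterpart of IRF1 at shared sites, lies on chromosome 4 (ENSG00000168310, chr4:185306856-185395712, minus strand). H3K27ac covered 6645 and 15794 bp of its window after ATRA and 2924 and 6539 bp in the control. The groups were apart by only 106 bp, since ATRA replicate 1 and control replicate 2 were nearly equal, and the log2 change of 1.09 became 0.32 as a share of the library, where the groups overlapped. The start was under both marks in all 4 libraries of each, with H3K27ac peaks of 4166 and 7240 bp after ATRA and 2924 and 5136 bp in the control.

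H3K27ac regions found only after ATRA lay inside IRF2, in an intron of the canonical transcript. One of 1372 bp (chr4:185372412-185373783) had its centre 22.6 kb from the start and held peaks of 1103 and 1372 bp in the ATRA libraries. The IRF2 ATRA-only stretch with the GGTCA repeat comes from the middle of this region. The other of 967 bp (chr4:185374669-185375635), 20.6 kb from the start, held peaks of 344 and 967 bp. Their deposited −log10 q ranged from 0.68 to 2.63. Outside both regions but also inside IRF2, control replicate 2 had an H3K27ac peak of 237 bp (chr4:185371204-185371440), with −log10 q of 3.03. An H3K4me3 region of 970 bp (chr4:185304645-185305614), just past the 3′ end of the gene record, was also present in both ATRA libraries (428 and 970 bp) and in no control library. The whole IRF2 window held 9429 and 11099 bp of H3K4me3 after ATRA against 9345 and 6551 bp, a log2 change of 0.33 whose replicate numbers gave 0.01 and 0.68.

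IRF3, the constitutively expressed virus-responsive factor, lies on chromosome 19 (ENSG00000126456, chr19:50162826-50169132, minus strand). Its window also holds the starts of BCL2L12, PRMT1, RRAS and SCAF1, and the peak over its start is shared with BCL2L12, so their parts cannot be told apart. H3K27ac covered 9622 and 10025 bp after ATRA and 8731 and 8053 bp in the control, a log2 change of 0.21 that was below the 0.49 median of genes with a peak. As a share of the library it was −0.70, with both ATRA libraries below both controls. The margin was narrow, since the window held 148 and 116 bp per Mb of peaks after ATRA and 303 and 149 bp in the control. The H3K27ac peak over the start was longer after ATRA, at 2909 and 4459 bp against 2564 and 1715 bp. H3K4me3 in the window did not separate the groups (20367 and 16440 bp against 19043 and 17481 bp), with a log2 change of 0.01.

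IRF7, the interferon-inducible partner of IRF3, lies on chromosome 11 (ENSG00000185507, chr11:612553-615983, minus strand). H3K27ac covered 1417 and 722 bp of its window after ATRA and was listed at 0 bp in both control libraries. Both peaks lay in 1 region (chr11:615923-617339), mostly upstream of the start, that also overlaps CDHR5. Of these peaks, 61 and 0 bp lay in the IRF7 record. The window also holds the starts of CDHR5 and SCT, so the parts of these genes cannot be told apart. The nearest control peaks were 26.7 and 29.1 kb from the IRF7 start. Over the start itself the peak was present in ATRA replicate 1 only. H3K4me3 was already there in all 4 libraries, at 3111 and 2662 bp after ATRA and 3333 and 1568 bp in the control, and these values overlapped. Of the 8 genes, IRF7 was thus the one whose window held H3K27ac in the ATRA libraries alone beside H3K4me3 in both groups. Its H3K27ac peaks were short, with −log10 q of 0.69 and 5.10.

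IRF5, the Toll-like receptor factor, lies on chromosome 7 (ENSG00000128604, chr7:128577511-128590092, plus strand). H3K27ac covered 3228 and 6346 bp of its window after ATRA and 1349 and 3054 bp in the control, a log2 change of 0.85 that was 0.85 and 0.86 for the replicate numbers and 0.20 as a share of the library, where the groups overlapped. All of these peaks lay inside the gene. The canonical start was free of both marks in every library, and the H3K27ac peak shared by all 4 libraries (3228, 3075, 1349 and 3054 bp) covered 3 annotated starts between 2279 and 2911 bp further in. The internal IRF5 promoter printed above, wholly under H3K27ac in all 4 libraries, lies there. H3K4me3 in the window was limited to 1 peak of 246 bp in ATRA replicate 1 and 1 of 200 bp in control replicate 1, and none of 20 annotated start positions was under it. ATRA replicate 2 alone had 2 further H3K27ac peaks, of 1250 and 2021 bp.

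IRF9, the interferon signalling factor, lies on chromosome 14 (ENSG00000213928, chr14:24630443-24637252, plus strand). Its window holds the starts of EMC9, PSME2, REC8, RNF31 and 1 further coding gene. H3K27ac covered 3607 and 6006 bp after ATRA and 1430 and 4030 bp in the control, so the groups overlapped (log2 change 0.64, exact two-sided permutation p = 0.67). No H3K27ac peak covered any of its 56 annotated start positions. A region of 1281 bp (chr14:24635786-24637066) lay at the 3′ end of the gene record, past the canonical transcript. Its nearest coding start was that of REC8, so the parts of IRF9 and REC8 there cannot be told apart. The region held peaks of 1084 and 1281 bp after ATRA and none in the control. H3K4me3 covered 15029 and 14733 bp against 14670 and 13261 bp, apart by 63 bp. Most of that length lay near the window's ends, and over the canonical start a peak of 1441 bp was present in ATRA replicate 1 alone. Of the 56 start positions, 47 and 7 lay under H3K4me3 after ATRA and 14 and 0 in the control, so the groups overlapped.

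**Figure D4:**
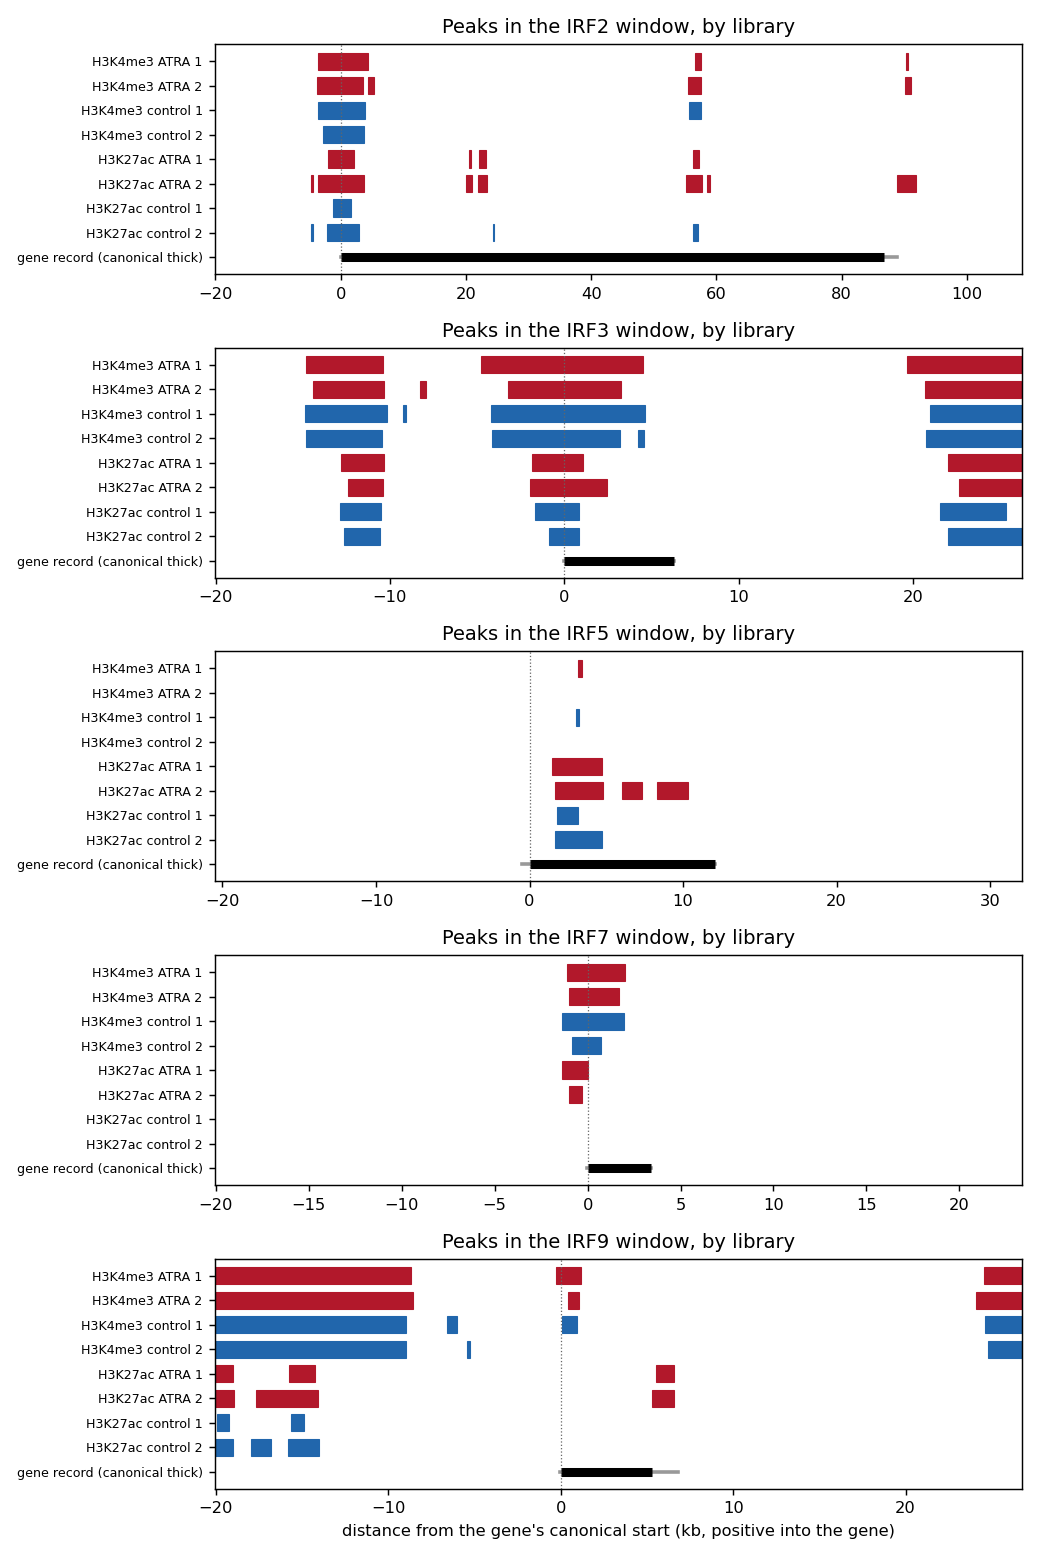
Peaks in the windows of IRF2, IRF3, IRF5, IRF7 and IRF9 (panels; boxes, ATRA red and control blue) in each of the 8 libraries (rows), by distance from each canonical start in kb (x axis, positive into the gene). IRF7 has H3K27ac boxes in the 2 ATRA rows only, and IRF5 has H3K27ac inside the gene with none at its canonical start.

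IRF4 and IRF8, the ETS-dependent factors, were nearly or wholly free of both marks. IRF8 (ENSG00000140968, chr16:85932722-85956212, plus strand) had no peak of either mark in its window of 63.5 kb in any of the 8 libraries, and the peaks nearest its start lay 95.7 to 98.6 kb away, at COX4I1 and EMC8. IRF4 (ENSG00000137265, chr6:391739-411443, plus strand) had no H3K4me3 in any library and 1 H3K27ac peak of 200 bp, in control replicate 2. Its nearest H3K4me3 peaks were 97.0 to 97.5 kb from the start and covered the start of DUSP22. Windows without a peak of either mark in any library were found for 3910 of 20090 coding genes (19.5%). A mark under the threshold of the peak call would not be seen in these lists.

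The order of the windows by share under peaks is a description, since windows of short genes hold neighbouring promoters. For H3K4me3 in the control, the means were 39.4% for IRF3, 29.8% for IRF9, 11.9% for IRF1, 6.17% for IRF2, 5.64% for IRF7 and 0.19% for IRF5, and neighbours in this order did not overlap except for IRF2 and IRF7. After ATRA the order was unchanged, and IRF2 (7.32% and 8.61%) lay above IRF7 (7.16% and 6.13%). For H3K27ac in the control, IRF1 (13.9% and 27.6%) and IRF3 (18.9% and 17.4%) overlapped, as did IRF9, IRF5 and IRF2, with means of 5.83%, 4.19% and 3.67%. After ATRA, IRF1 at a mean of 52.3% lay apart from IRF3 at 21.2%, and IRF3 lay apart from IRF9, IRF5 and IRF2 at 10.3%, 9.10% and 8.71%, which overlapped each other.

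Over the 8 windows together, 6 of 29 merged H3K27ac regions (20.7%) were in both ATRA libraries and in no control library, and 0 were in both control libraries and in no ATRA library. Among 53141 regions in the genome the shares were 8.07% and 1.16%. Regions held by all 4 libraries were also more frequent in these windows, at 31.0% against 18.7% in the genome. By bases, 24138 of 107529 bp (22.4%) under any H3K27ac peak were in both ATRA libraries only, against 14.8% in the genome. Most of these bases lay at IRF1. For H3K4me3, 1 of 20 regions was in both ATRA libraries only (5%, against 3.04% in the genome). All 4 libraries shared 9 of them (45%, against 57.3% in the genome).

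**Figure D5:**
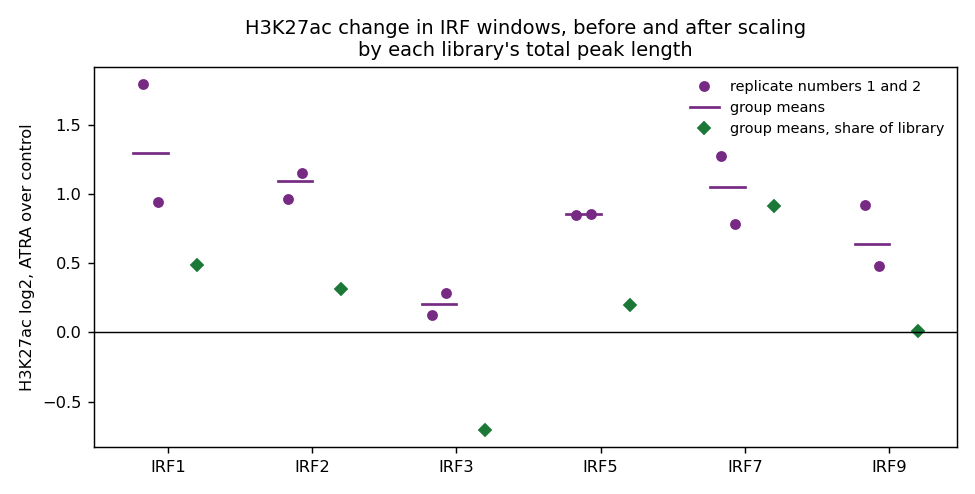
H3K27ac log2 change, ATRA over control (y axis), for the 6 IRF genes with H3K27ac after ATRA (x axis), with replicate numbers as points, group means as bars and the group means as a share of each library's peak length as diamonds. The diamonds lie below the bars for all 6 genes, and that of IRF3 is at −0.70.

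Genes that act with the IRF factors were counted from 4 lists. Of 8 interferon receptor and signalling genes, 3 had more H3K27ac in both ATRA libraries (IFNAR2, TYK2 and STAT2) and 0 had less. IFNAR2, a chain of the type I interferon receptor, had the highest log2 change, 2.00 (28162 and 39301 bp against 4600 and 10829 bp), and TYK2, a kinase bound to that receptor, the lowest of the 3, 1.39. For H3K4me3, 4 of the 8 were higher and 0 lower. As a share of the library, 3 were above and 1 below in H3K27ac, and 2 above and 0 below in H3K4me3.

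Of 11 genes of the sensing pathways upstream of IRF3, IRF5 and IRF7, 3 were higher in H3K27ac and 0 lower, and as a share of the library 3 were above and 5 below. IKBKE, a kinase that phosphorylates IRF3 and IRF7, had 23997 and 20881 bp after ATRA and 3868 and 4374 bp in the control, a log2 change of 2.19. TRAF6, an adaptor of Toll-like receptors, had 545 and 1274 bp and was listed at 0 in the control. H3K4me3 was higher in 5 of the 11 windows and lower in 0, and as a share of the library 3 were above and 2 below.

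Of 10 DNA-binding partners and cofactors, 3 were higher and 2 lower in H3K27ac, and as a share of the library 1 was above and 4 below. BATF, an AP-1 factor that pairs with IRF4 and IRF8, had the highest change among those called, 1.64 (1025 and 5677 bp against 0 and 784 bp). Its relative BATF3 had the lowest among those called, −0.32 (7430 and 7086 bp against 9242 and 9435 bp). H3K4me3 was higher in 2 of the 10 and lower in 1, and as a share of the library 0 were above and 4 below.

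Of 12 interferon target genes, 6 were higher in H3K27ac (ISG15, MX1, MX2, IFI6, BST2 and IFIT3) and 0 lower, and as a share of the library 5 were above and 0 below. MX2, an antiviral GTPase gene, had 27550 and 23626 bp after ATRA and 1185 and 3807 bp in the control, a log2 change of 2.93, and IFIT3 had the smallest of the 6, 1.11. OAS1, OAS2, OAS3 and GBP1 had no H3K27ac peak in any library. H3K4me3 was higher in 6 of the 12 and lower in 0, and as a share of the library 5 were above and 0 below. Windows of neighbouring targets overlap, so these counts are not independent. For all 4 lists, the shares among all coding genes were 33.7% higher and 2.97% lower for H3K27ac, and 30.1% higher and 2.46% lower for H3K4me3. With lengths as a share of the library, they were 14.1% above and 19.3% below for H3K27ac, and 11.6% above and 18.5% below for H3K4me3.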

How the data were processed

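ChIP-seq of HL-60 cells gave 8 libraries, with 2 replicates per mark and condition, grouped by their titles. Per the paper's methods, the authors trimmed adapters, mapped the reads with Bowtie (hg19) and ran the broad mode of MACS2 library by library. Input libraries were made, and their use in the call is not stated. Tool versions are not given in the sources used here. The authors deposited for each peak its position, which was used, a score, which was not used, and a −log10 q, used only as a filter at 5. The columns for fold and −log10 p were left out, since some deposited entries are impossible for such measures.

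Genes came from GENCODE release 44 mapped to GRCh37, with 1 record per symbol. In each library the bp under peaks were summed over each gene record plus 20 kb and at the TSS, for all 20090 coding genes. A gene was called where both ATRA libraries lay above, or below, both control libraries, and log2 ratios were taken of group means plus 1000 bp, which understates changes of short lengths. Single windows were tested with an exact two-sided permutation test over libraries. Peaks of a mark were merged into regions with at least 1 bp of overlap.

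All 8 members were named. The rule also named up to the 3 longest regions per member, mark and direction found in both libraries of 1 condition only, the 3 genes most like the member with the largest H3K27ac change, and the highest and lowest called gene per pathway list. The names of other called genes in those lists were added after their values were seen. 1 item that the lists cover is not reported here, and its list was counted without it. The members and lists were chosen with earlier results of these data known. Lengths under peaks and calls were tested on simulated data. Read depth is unknown, so the precision rests on 2 libraries per group. Alternatives changed the peak set, the scaling, the window, the start site and the libraries. Python 3.11.15, numpy 2.4.6, scipy 1.17.1 and matplotlib 3.10.9 were used.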

Additional observations from a re-analysis of the deposited data

How the results depend on the processing

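As a share of each library's total length under peaks, H3K4me3 windows counted 1 higher and 1 lower (median log2 change 0.011), and H3K27ac windows 2 higher and 1 lower (median 0.10). IRF9 H3K4me3 then turned to −0.13 and IRF3 H3K27ac to −0.70, and 1 TSS peak of each mark was shorter and 0 H3K27ac TSS peaks were longer. With −log10 q of at least 5, 1 H3K27ac window was higher (median 0.13). That filter did not follow peak length, since the IRF5 H3K4me3 peak of 246 bp passed it and the IRF2 H3K27ac start peak of 7240 bp did not. With equal peak numbers, the longest kept (added after seeing the data), the H3K27ac median was 0.45. Counting peaks instead of bp, 1 H3K4me3 window (median 0.00) and 2 H3K27ac windows (median 0.39) were higher, and IRF1 and IRF9 H3K4me3 turned to −0.17. With 5 kb flanks the medians were 0.10 (H3K4me3) and 0.95 (H3K27ac), and for the gene body alone H3K4me3 had 1 window higher (median 0.15). With 100 bp added in place of 1000 bp the medians were 0.12 and 0.94. Requiring a ratio of 1.5 left 0 H3K4me3 windows and 0 H3K27ac TSS peaks. The longest peak over any transcript start was longer for 1 (H3K4me3) and 3 (H3K27ac) members, the canonical start gave 1 for H3K4me3 (added after seeing the data), and 2 kb around the TSS gave 2 for H3K27ac. The cause of these changes was not tested.

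Leaving out each library in turn gave 3 to 5 H3K4me3 windows higher (5 without ATRA replicate 2), 0 to 1 lower and a median of 0.00 (without control replicate 2) to 0.17 (without ATRA replicate 2). H3K27ac windows were 5 to 6 higher, 0 to 1 lower and had a median of 0.35 (without ATRA replicate 2) to 1.15 (without control replicate 2). TSS peaks were longer for 0 to 3 members and shorter for 0 to 1 (H3K4me3), and longer for 1 to 2 (H3K27ac). With 1 library left in a group a call is easier to meet. Its share among all coding genes was not computed, so these counts cannot be set against the genome.

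Peak names carry a tag that is common to libraries of 1 replicate number, and the deviations of same-numbered ATRA and control windows from their group means correlated with r = 0.26 over 14609 genes (H3K4me3) and r = 0.50 over 15477 genes (H3K27ac), but the labels do not say what a number marks. With the replicate block, 6 H3K27ac and 3 H3K4me3 windows were higher (medians 0.78 and 0.06), and TSS peaks were longer for 1 (H3K4me3) and 2 (H3K27ac) members. With the replicate block and the share of the library together (added after seeing the data), H3K4me3 had 1 window higher and 1 lower (median 0.01, IRF9 at −0.13), and H3K27ac had 4 higher (IRF1, IRF2, IRF5 and IRF7) and 1 lower (median 0.10, IRF3 at −0.64). A block call compares each ATRA library only with the control of its own number, which is easier to meet. Shares of all coding genes were not computed for block calls, so these counts cannot be set against the genome.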
